A study of Oreochromis niloticus with 5 samples.

Results

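Nile tilapia fast muscle was examined for 9 chaperone genes, namely the HSP70 genes hspa1b (feature rna59067) and hspa8b (rna40474), the HSP110 gene hspa4a (rna28040), the HSP90 genes hsp90aa1.1 (rna42186) and hsp90aa1.2 (rna42187), the J-protein genes dnaja (rna19973), dnajb1b (rna14537) and dnajb1a (rna7305), and the HSP70 co-chaperone gene hspbp1 (rna6412). They are 9 of the 42624 genes with a counted feature. The 9 genes were chosen by their symbols and from their read counts in these same 5 libraries, with the spread between fish already known, so their levels and order are given as a description and carry no test. The libraries come from 5 full-sib males, named M1 to M5, with 1 fast (white) muscle library per fish. The labels give an age of 5 months for all fish, although the study's methods describe a longer rearing. The fish were killed with clove oil, and all belong to 1 group without a treatment, so there is no control group to set a fish against. Replicates are separate fish.

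HSP70 chaperones hold exposed stretches of unfolded proteins and let them go again in a cycle driven by ATP. J-proteins bring the substrate and start ATP hydrolysis, HSP110 and HSPBP1 exchange the spent nucleotide, and HSP90 takes over substrates that are partly folded. Each of these families has members that cells make all the time and members that heat shock factor 1 switches on under stress, and in skeletal muscle HSP90 works with Unc45b and Smyd1 in the folding of myosin. The value given for a gene is its normalized count, which is the deposited count divided by the library's DESeq2 size factor. The span of a gene is the highest of its 5 normalized counts divided by the lowest. The background is the 7209 genes whose normalized count averaged at least 100, taking 1 transcript per gene.

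Summed over all features, the libraries held between 26750559 and 90337019 counts (median 36731226). A fragment could be counted on more than 1 feature, so these sums are not numbers of sequenced fragments. The size factors lay between 0.607 in M1 and 2.20 in M2. A clearly smaller part of the reads of library M1 aligned to the genome than of the other libraries, per the study's read statistics. Without M1 the spans of the 9 genes were the same except that of dnajb1a, which was 2.87 in place of 3.59, and the part of this library's alignment in the place of M1 among the fish was not tested. Up to 3 counts are still possible where a library shows 0, and this limit and the counting intervals used below cover counting error only. The fast muscle markers that were sought summed to between 3157576 in M3 and 3842348 in M1, with 6 of 10 symbols at a mean of at least 100 and 3 without counts. The summed normalized counts of slow muscle markers were between 51.7 and 1231, highest in M1 and 77.3 in M4. Of the sum in M1, mybpc1 alone made up 1126, and it was the 1 of 8 slow muscle symbols with a mean of at least 100, whereas myh7ba was highest in M5 (125.6, with 46.1 in M1). Fibroblast markers lay between 17345 and 48209, also highest in M1, with 28643 in M4. M4 had the lowest sum for red blood cell markers (118, against up to 248), for adipocyte markers (1235, against up to 2056) and for liver markers (2.42, against up to 13.2, with 2 of 3 liver symbols at 0 in every fish). The liver sum rests on fga alone, at a mean of 6.92, which is too low to order the fish. Only 1 of 5 red blood cell symbols and 1 of 3 adipocyte symbols had a mean of at least 100, and that gene made up most of the sum. The other red blood cell symbols differed in their lowest fish. Immune markers lay between 1377 and 1790. In bulk tissue, fewer cells of a type and less RNA per cell cannot be told apart.

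All 9 genes were highest in M4. Their median span was 27.4, against 1.60 for the background, and the smallest span was 3.59 for dnajb1a. A span of at least 2 was found in 9 of the 9, against 24.4% of the background, and a span of at least 10 in 7 of the 9, against 2.09% of the background. M4 was the highest fish in 17.2% of the background genes. In 6 of the 9 genes the fish followed the order M4, M1, M2 and then M3 and M5 in either order, which holds in 2.79% of the background. Because the genes were chosen on these values, nothing is read from the differences between these shares. M1 was next to M4 in 7 genes and M2 in the other 2. The lowest fish was M5 in 5 genes, M3 in 3 and M1 in 1.

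**Figure D1:**
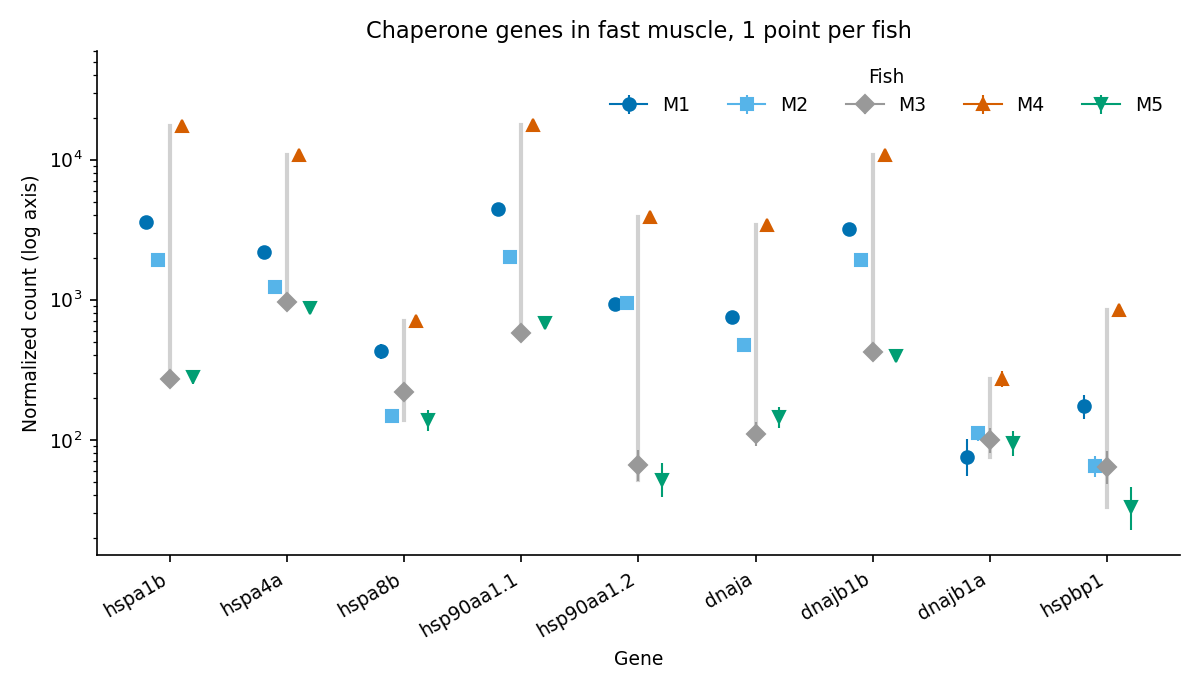
Normalized count (log axis) of the 9 chaperone genes in the 5 fish. Each point is 1 fish, the thin bars are exact 95% Poisson counting intervals (often smaller than the point), and the grey line joins the lowest and the highest fish. M4 is on top in every gene, M3 and M5 are near the bottom in most, and hspa8b and dnajb1a have the shortest lines.

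Among the HSP70 genes, hspa1b codes for a stress-inducible cytosolic form. It lies on linkage group 20 from 21177170 to 21180075 on the minus strand, with 2 exons and 2393 transcribed bases. From the highest fish to the lowest, its normalized counts were 17435 in M4, 3578 in M1, 1922 in M2, 282.1 in M5 and 270.8 in M3, a mean of 4698 ± 7251 (SD, n = 5). M4 stood 4.87-fold above the next fish and held 74.2% of the sum over the fish. M3 and M5 formed the low end, and their counting intervals overlapped. The span of 64.4 was larger than that of 99.0% of the background genes, and without M4 it was 13.2, so M1 and M2 also stood well above M3 and M5.

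The second HSP70 gene, hspa8b, is a copy of the constitutive cognate hspa8 and lies on linkage group 14 from 26041692 to 26046744 on the plus strand, with 9 exons. The normalized counts of hspa8b were 705.6 in M4, 429.7 in M1, 219.9 in M3, 148.9 in M2 and 137.5 in M5 (mean 328 ± 241, SD, n = 5). The span was 5.13, and 3.12 without M4. M4 and M1 were again the upper fish, but M3 came before M2, and the intervals of M2 and M5 overlapped. M4 was 1.64-fold above M1, the smallest lead of M4 among the 9 genes. In this gene M4 held 43.0% of the sum.

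RefSeq lists another HSP70 gene under LOC100700083, with the synonym Hsp70, on linkage group 4 from 33497399 to 33500491. It was found after the values were seen, and it is not counted among the 9. Here the normalized counts were 15826 for M4, 3126 for M1, 1329 for M2, 55.3 for M3 and 51.8 for M5. The span of 305 exceeded that of hspa1b, and without M4 it was 60.3. The order M4, M1, M2 and then M3 and M5 was that of hspa1b, up to the order of M3 and M5. Per kilobase, hspa1b was 1.06-fold above this copy in M4 and 1.39-fold in M2, and 4.70-fold above it in M3 and 5.22-fold in M5. How alike the copies are in sequence was not determined here, and reads that match both could have been counted on either, so the split between them is uncertain.

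The constitutive HSP70 genes had much shorter spans. The cytosolic cognate hspa8 had normalized counts of 3729 for M4, 3186 for M1, 3023 for M2, 2903 for M3 and 2691 for M5, a span of 1.39. A further cognate gene, hsc70 on linkage group 11, which was also picked after its values were seen, had 8484 in M4, 6908 in M2, 6871 in M5, 6752 in M1 and 5471 in M3, a span of 1.55. Both were highest in M4, where hspa1b was highest too, but by a far smaller fold. The ratio of hspa1b to hspa8 per kilobase was 4.61 in M4, 1.11 in M1, 0.627 in M2, 0.103 in M5 and 0.0920 in M3. The stress-inducible copy was thus above the cognate in M4 and slightly in M1, and far below it in M3 and M5. The ratio of hspa8b to hspa8 was far below 1 in every fish, with a mean log2 value of -3.71 ± 0.86 (SD, n = 5) and the highest value, -2.58, in M4.

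Summed per kilobase over hspa1b, LOC100700083, hspa8b, hsc70 and hspa8, the HSP70 level had a span of 6.13. The share of hspa1b in this sum was 39.5% for M4, 23.8% for M1, 17.1% for M2, 3.76% for M3 and 3.58% for M5. The share of LOC100700083 was 37.4% for M4, 21.6% for M1, 12.3% for M2, 0.800% for M3 and 0.686% for M5. In M4 these copies made up most of the HSP70 level. In every other fish hsc70 and hspa8 together did, though only just in M1 (30.6% and 21.5%). The share of hsc70 was 59.5% in M5, 51.8% in M3, 42.0% in M2, 30.6% in M1 and 13.1% in M4. The share of hspa8b stayed between 1.19% in M2 and 2.74% in M3.

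The HSP110 gene hspa4a, whose product exchanges the nucleotide of HSP70, lies on linkage group 10 from 20397772 to 20410710 on the minus strand, with 20 exons in the transcript used. Its normalized counts were 10826 for M4, 2191 for M1, 1235 for M2, 962.0 for M3 and 868.2 for M5 (mean 3217 ± 4286, SD, n = 5). M4 was 4.94-fold above M1, the largest lead of M4 in the set, whereas the other fish lay closer together. The span was 12.5, and 2.52 without M4. The 3 other listed transcripts of the gene had means of 3210, 3174 and 3173 normalized counts, and since the authors let a fragment match more than 1 feature, the 4 transcripts were not separate measurements. The paralog hspa4b had normalized counts of 1730 in M5, 1709 in M2, 1521 in M1, 1499 in M3 and 1458 in M4. Its span of 1.19 was among the 5 smallest of the chaperone genes examined, and M4 was its lowest fish. The ratio of hspa4a to hspa4b per kilobase was 6.51 in M4 and 1.26 in M1, and between 0.440 and 0.633 in the other fish. Another HSP110 gene, hspa4l, was below the minimum at a mean of 11.6, with 39.9 normalized counts in M4 and between 2.27 and 6.59 in the other fish. Genes on the opposite strand that overlap hspa4a had means of 0.507 (LOC109203868) and 18.2 (zcchc10).

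The cytosolic HSP90-alpha genes hsp90aa1.1 and hsp90aa1.2 lie next to each other on the plus strand of linkage group 15, from 5311904 to 5316662 and from 5317007 to 5321980, with 11 exons each and 344 bases between them. In zebrafish, hsp90aa1.1 is the copy made in developing skeletal muscle, where myofibril assembly needs it. Its normalized counts here were 17699 in M4, 4457 in M1, 2005 in M2, 684.8 in M5 and 582.9 in M3 (mean 5086 ± 7222, SD, n = 5). The span was 30.4, and 7.65 without M4. No pair of neighbouring fish had overlapping counting intervals in this gene, the only one of the 9 of which that holds. The intervals of M3 and M5 nearly met, however, with the upper bound of M3 at 634.3 and the lower bound of M5 at 634.5. Their order is therefore uncertain. M4 was 3.97-fold above M1.

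The neighbour hsp90aa1.2 had normalized counts of 3918 in M4, 951.8 in M2, 925.3 in M1, 66.1 in M3 and 51.8 in M5 (mean 1183 ± 1591, SD, n = 5). Its span of 75.6 was the largest of the 9 and exceeded that of 99.1% of the background genes, but on regularized log values it was 13.8, below the 15.4 of hspa1b. Without M4 the span was 18.4, so M1 and M2 stood far above M3 and M5. Unlike in hsp90aa1.1, M2 was level with M1, and both that pair and the pair of M3 and M5 overlapped in their counting intervals.

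Within each fish hsp90aa1.1 was above hsp90aa1.2. The ratio per kilobase was 12.7 in M5, 8.48 in M3, 4.63 in M1, 4.34 in M4 and 2.03 in M2. The mean log2 ratio was 2.42 ± 1.01 (SD, n = 5), above 0 in 5 of 5 fish. The ratio was smallest in M2 and largest in M5 and M3, the fish with the lowest levels of both genes. M1 and M4 had nearly the same ratio although their levels of hsp90aa1.1 differed 3.97-fold. The profiles of these neighbours over the fish differed by 0.90 (root mean square difference of centred log2 values), whereas hsp90aa1.1 and dnaja, on different linkage groups, differed by 0.17.

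The HSP90-beta gene hsp90ab1, the constitutive cytosolic form, varied little. The fish had normalized counts of 4511 in M2, 4477 in M4, 3719 in M1, 3217 in M5 and 3057 in M3, a span of 1.48. The ratio of hsp90aa1.1 to hsp90ab1 per kilobase was 3.65 in M4 and 1.11 in M1, and below 1 in M2 (0.410), M3 (0.176) and M5 (0.197). Of the cytosolic HSP90 level summed per kilobase, the alpha genes together took 81.8% in M4, 57.4% in M1, 38.0% in M2, 17.5% in M5 and 16.4% in M3. The alpha form was thus the larger part in M4 and M1 and the smaller part in M2, M3 and M5. The sum of the 3 genes had a span of 6.72.

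**Figure D2:**
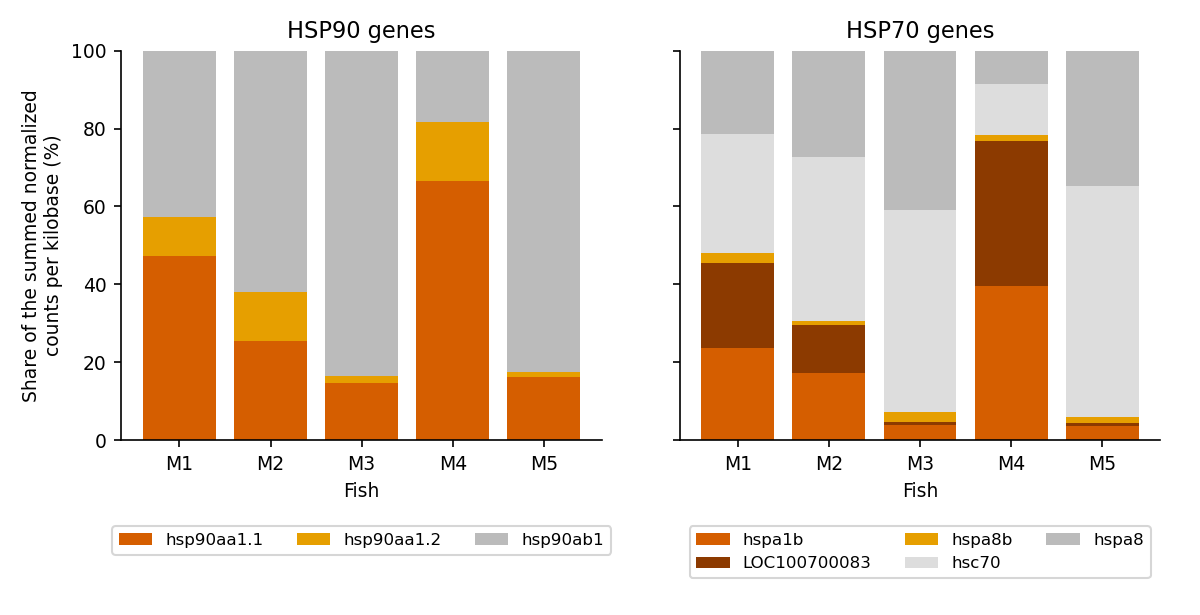
Share of each gene in the normalized counts per kilobase summed over the cytosolic HSP90 genes (left) and the HSP70 genes (right), 1 bar per fish, in percent. In M4, hsp90aa1.1 and hsp90aa1.2 make up 81.8% of the HSP90 level, and hsp90ab1 makes up 83.6% of it in M3 and 82.5% in M5, while hspa1b with LOC100700083 fills most of the HSP70 bar in M4 only.

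Among the J-protein genes, dnaja codes for a class A J-protein, the class with a zinc finger domain. It lies on linkage group 7 from 52165439 to 52168428 on the plus strand, with 8 exons. Its normalized counts were 3405 in M4, 749.1 in M1, 474.3 in M2, 144.5 in M5 and 110.5 in M3 (mean 977 ± 1382, SD, n = 5). The span was 30.8, and 6.78 without M4. The intervals of M3 and M5 overlapped. The other listed transcript of the gene had a mean of 975 normalized counts, so it was not a separate measurement. The gene shares 5 bases with rps27l on the opposite strand (mean 471), and the strand setting of the counting is not given in the sources used here.

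The other class A genes did not share these levels. Their spans were 1.67 for dnaja1, 1.81 for dnaja2a, 1.38 for dnaja2b and, for the mitochondrial form dnaja3a, 1.28. M4 was the highest fish in dnaja3a alone, where it had 791.4 normalized counts and M5 had 790.4. In dnaja1 and dnaja2b M4 was the lowest fish. The ratio of dnaja to dnaja2a per kilobase was 3.22 in M4, 1.03 in M1, 0.462 in M2, 0.110 in M5 and 0.0983 in M3.

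The class B J-protein DNAJB1 is the main J-protein partner of stress-inducible HSP70 in mammals, and RefSeq lists a pair of genes under this name in tilapia. The gene dnajb1b lies on linkage group 6 from 30996846 to 31000372 on the minus strand, with 3 exons. For dnajb1b the normalized counts were 10864 for M4, 3179 for M1, 1919 for M2, 426.8 for M3 and 396.7 for M5 (mean 3357 ± 4353, SD, n = 5). The span was 27.4, and 8.01 without M4. M4 was 3.42-fold above M1, and M3 and M5 overlapped at the low end.

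The paralog dnajb1a, on linkage group 4 from 22839408 to 22844719 on the plus strand, also with 3 exons, had normalized counts of 271.9 in M4, 111.2 in M2, 99.7 in M3, 94.7 in M5 and 75.7 in M1 (mean 131 ± 80.0, SD, n = 5). It was the least abundant of the 9 genes per kilobase, at a mean of 30.2, against 1738 for dnajb1b. Only M4 stood apart: it was 2.44-fold above M2, and every neighbouring pair below M2 overlapped, as did M2 and M3. Without M4 the span was 1.47. M1, next to M4 in dnajb1b, was the lowest fish in dnajb1a.

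The dnajb1a level was below that of dnajb1b in every fish. The log2 ratio of dnajb1a to dnajb1b per kilobase was -3.23 in M5, -3.26 in M3, -5.27 in M2, -6.48 in M4 and -6.55 in M1 (mean -4.96 ± 1.65, SD, n = 5). The ratio was highest in M3 and M5, where dnajb1b was lowest. In those fish dnajb1a made up 9.44% and 9.63% of the summed level of the pair, and in the other fish between 1.05% in M1 and 2.52% in M2.

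**Figure D3:**
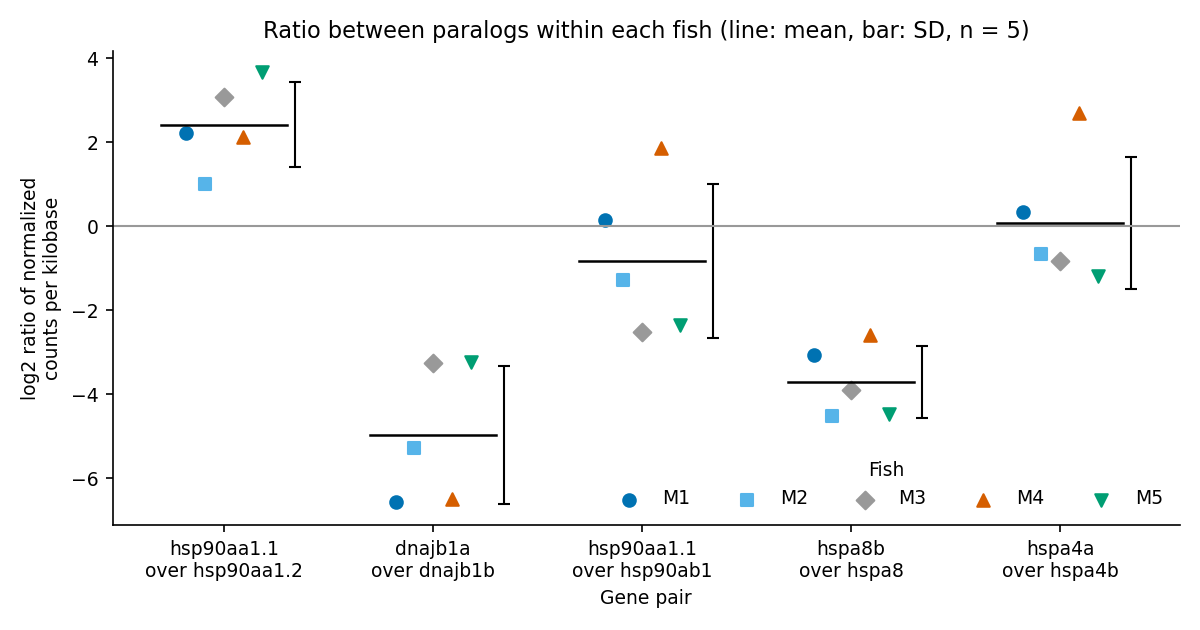
log2 ratio of normalized counts per kilobase within each fish for 5 pairs of related genes, with the mean (line) and SD (bar) over 5 fish. The ratio of hsp90aa1.1 to hsp90aa1.2 is above 0 and that of dnajb1a to dnajb1b below 0 in every fish, whereas the ratios of hsp90aa1.1 to hsp90ab1 and of hspa4a to hspa4b are above 0 in M1 and M4 only.

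The gene hspbp1, whose product binds HSP70 and exchanges its nucleotide, lies on linkage group 4 from 14223604 to 14228285 on the plus strand, with 8 exons. Its normalized counts were 842.2 for M4, 172.9 for M1, 64.5 for M2, 63.9 for M3 and 32.9 for M5 (mean 235 ± 343, SD, n = 5). The span was 25.6, and 5.26 without M4. M4 was 4.87-fold above M1, M2 and M3 were level, and M5 was lowest. The value in M5 rests on 33 deposited counts. The span was 13.2 without M5 and 38.3 after down-sampling to the smallest library. Per kilobase hspbp1 was below hspa1b in every fish, with a mean log2 ratio of -3.38 ± 1.15 (SD, n = 5).

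The profiles of the 9 genes were not all alike. The closest were dnaja and hsp90aa1.1 at a root mean square difference of 0.17 on the centred log2 scale, dnaja and dnajb1b at 0.24, and dnajb1b and hsp90aa1.1 at 0.25. The nucleotide exchange genes hspa4a and hspbp1 differed by 0.39. The ratio of dnaja to dnajb1b, which code for J-proteins of different classes, stayed between 0.255 in M1 and 0.395 in M5 per kilobase while the spans of these genes were 30.8 and 27.4. The ratio of hspa1b to dnajb1b lay between 0.512 in M3 and 1.30 in M4. The farthest apart were dnajb1a and hsp90aa1.2 at 2.09, and dnajb1a differed from its paralog dnajb1b by 1.47. Profiles over 5 fish share the size factor of each library, and a common high fish brings them together.

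The genes other than the 9 whose profile was nearest were sought among 7145 genes outside the chaperone list. For dnajb1b they were ppp1r27b, a regulatory subunit gene of protein phosphatase 1 (0.37), the homeobox gene gbx1 (0.39), the lysolipid transporter gene mfsd2ab (0.60), the stress-responsive transcription factor gene atf3 (0.63) and the F-box gene fbxl22 (0.67). For hsp90aa1.1 they included gbx1 (0.49), mfsd2ab (0.50), ppp1r27b (0.55) and the muscle ankyrin repeat gene ankrd1a (0.71), with 1 unnamed locus. For hspa1b they included ppp1r27b (0.70), gbx1 (0.84), atf3 (0.98) and mfsd2ab (1.01), with 1 unnamed locus. The same few genes stood near these 3 chaperone genes, whose own profiles differed by only 0.25 to 0.53. Shared neighbours follow from that, so nothing further is read from them. For hsp90aa1.2 they were mibp (0.68), ppp1r27b (0.80), atf3 (0.92), LOC100700083 (0.92) and 1 unnamed locus. A different set was nearest to dnajb1a, namely the myogenic factor gene myod2 (0.19), ccdc117 (0.20), si:dkey-27i16.2 (0.22), ubash3ba (0.22) and 1 unnamed locus. When the profile was taken over M1, M2, M3 and M5 alone, which was done after seeing the data, 1 of 5 nearest genes was kept for hspa1b, 1 for hsp90aa1.1, 2 for hsp90aa1.2, 0 for dnajb1a and 2 for dnajb1b. For ppp1r27b the normalized counts were 12245 for M4, 7603 for M1, 3681 for M2, 798.4 for M3 and 596.0 for M5.

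The rest of the chaperone network was taken from a list of symbols for HSP70, HSP90, chaperonin, J-protein, co-chaperone and heat shock factor genes, of which 77 matched besides the 9, and 55 had a mean of at least 100. Their median span was 1.56, between 1.13 and 13.9. A span of at least 2 was found in 11 of the 55 (20%), beside 24.4% of the background. M4 was the highest fish in 17 of the 55, beside 17.2% of the background. The list was chosen with earlier results of these data known, so nothing is read from this difference. Of the 11 with a span of at least 2, 9 were highest in M4. The matching share of background genes with such a span was not computed. Among the 151 background genes with a span of at least 10, 59 were highest in M4. Without M4, 5 of the 55 (9.09%) had a span of at least 2, beside 20.1% of the background. By role, 1 of 6 other HSP70 genes, 0 of 3 HSP90 genes, 1 of 1 chaperonin genes, 0 of 4 class A, 3 of 7 class B and 2 of 20 class C J-protein genes, 4 of 12 other co-chaperone genes and 0 of 2 heat shock factor genes reached a span of 2. In this list, hsf4 and dnajc5aa had no counts in any fish. The symbol search did not take in hsc70 and LOC100700083, and hspa5, hspe1 and hsph1 are not among the matches either. Genes listed under other symbols can be missing, so the counts by role may be incomplete.

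**Figure D4:**
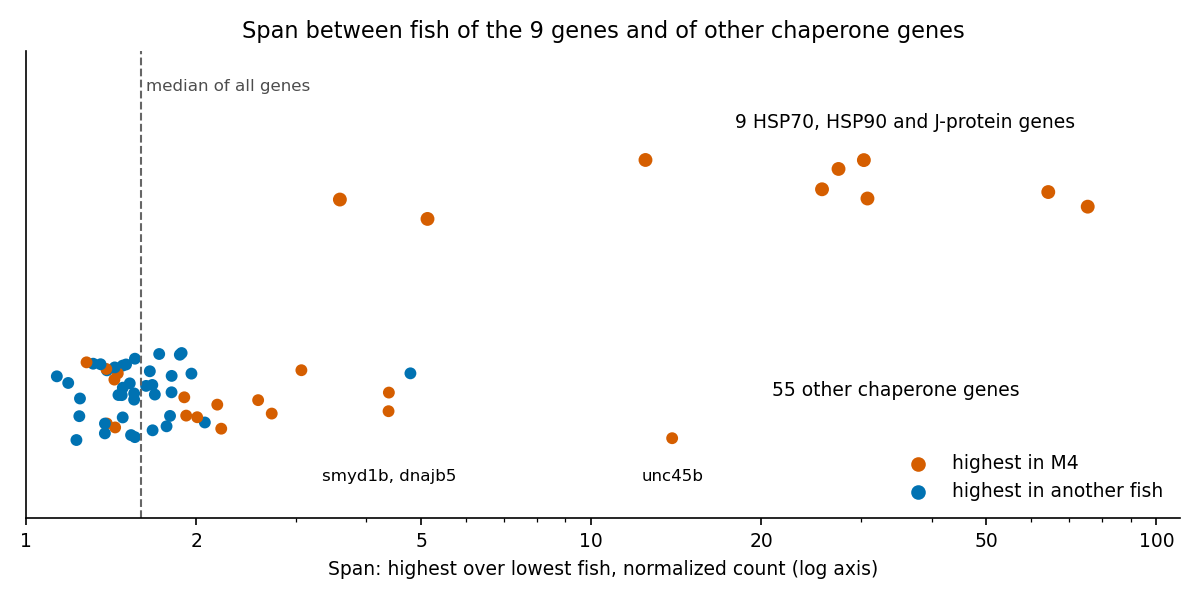
Span (highest over lowest fish, log axis) of the 9 chaperone genes (top) and of the 55 other chaperone genes whose mean is at least 100 (bottom), with points shifted up and down for legibility. The dashed line is the median of the 7209 background genes, 1.60, and the 9 genes lie between 3.59 and 75.6, while unc45b at 13.9 is the only one of the other 55 above 10.

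The largest span of the list was that of unc45b, the myosin chaperone that works with HSP90. The normalized counts of unc45b were 5002 for M4, 1525 for M1, 1062 for M2, 561.2 for M3 and 359.8 for M5, a span of 13.9, and 4.24 without M4. The order of the fish was that of dnajb1b. The histone and myosin methyltransferase gene smyd1b had 3922 in M4, 1683 in M1, 1238 in M2, 1022 in M5 and 894.9 in M3, a span of 4.38, and 1.88 without M4. Its paralog smyd1a was the most abundant gene of the list, at 8944 normalized counts per kilobase, with a span of 1.63 and its lowest value in M4.

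Of the class B genes, dnajb12b of the endoplasmic reticulum membrane had a span of 4.78 and was highest in M1 (462.6), with 399.9 in M4 and 96.7 in M5. The gene dnajb5 had a span of 4.38, with 206.6 in M4 and 47.2 in M2, and dnajb4 had a span of 2.72, with 1735 in M4 and 638.1 in M3. The other co-chaperone genes past a span of 2 were fkbp4, an immunophilin of HSP90 complexes (2.57), and cdc37l1 (2.21), both highest in M4. The remaining genes past it were hspa12b, a distant HSP70 relative (3.07), the mitochondrial chaperonin gene hspd1 (2.18) and dnajc12 (2.01), all highest in M4, and dnajc3a of the endoplasmic reticulum (2.07), highest in M5. The genes dnajb4, fkbp4, cdc37l1, hspd1, dnajc12 and dnajc3a were named after their values were seen.

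The genes hspa9, hsp90b1, trap1 and hsf1, named after their values were seen, had spans below the background median of 1.60. Other genes of mitochondria and endoplasmic reticulum, namely hspd1, dnajc3a and dnajb12b above, were past a span of 2. The mitochondrial HSP70 gene hspa9 had a span of 1.43, the HSP90 gene of the endoplasmic reticulum, hsp90b1, had 1.48, and the mitochondrial HSP90 gene trap1 had 1.44. The heat shock factor gene hsf1 had a span of 1.38, with 733.4 normalized counts in M4 and the highest value, 930.0, in M5. The smallest spans belonged to dnajc8, a splicing-related J-protein gene (1.13), hspa4b (1.19), dnajc25 (1.23), dnajb12a (1.24) and dnajc5ab (1.24). The most abundant genes per kilobase after smyd1a were fkbp5, another HSP90 immunophilin (5567, span 1.55), dnajb6b, which keeps proteins from aggregating (3709, span 1.77), hsp90ab1 (1456) and hspa8 (1316). For comparison, the means per kilobase of the 9 genes were 1963 for hspa1b, 1800 for hsp90aa1.1, 1738 for dnajb1b, 898 for hspa4a, 548 for dnaja, 435 for hsp90aa1.2, 128 for hspbp1, 123 for hspa8b and 30.2 for dnajb1a.

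A list of immediate early response genes moved with the 9 genes in part. Their summed normalized counts lay between 14588 in M5 and 45595 in M4, in the order M4, M2, M1, M3 and M5, and 10 of the 11 with a mean of at least 100 were highest in M4, beside 17.2% of the background, and 10 had a span of at least 2, beside 24.4%. The transcription factor gene jun had 7610 in M4, 5636 in M2, 4345 in M1, 790.9 in M3 and 737.6 in M5. The gene atf3 had 7029 in M4, 3969 in M2, 2135 in M1, 576.4 in M3 and 426.6 in M5. In both, M3 and M5 were low as in hspa1b, and M2 rather than M1 came next to M4. The gene with the highest mean of the list, dusp1, had another order below M4. It had 13099 in M4, 10945 in M5, 8579 in M3, 8495 in M2 and 7226 in M1. Of those 11, fosb was the one with another highest fish, at 1313 in M3 and 712.9 in M4. The list matched 15 symbols, and none of those below that mean was highest in M4. The part of this response in the chaperone levels was not tested.

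**Figure D5:**
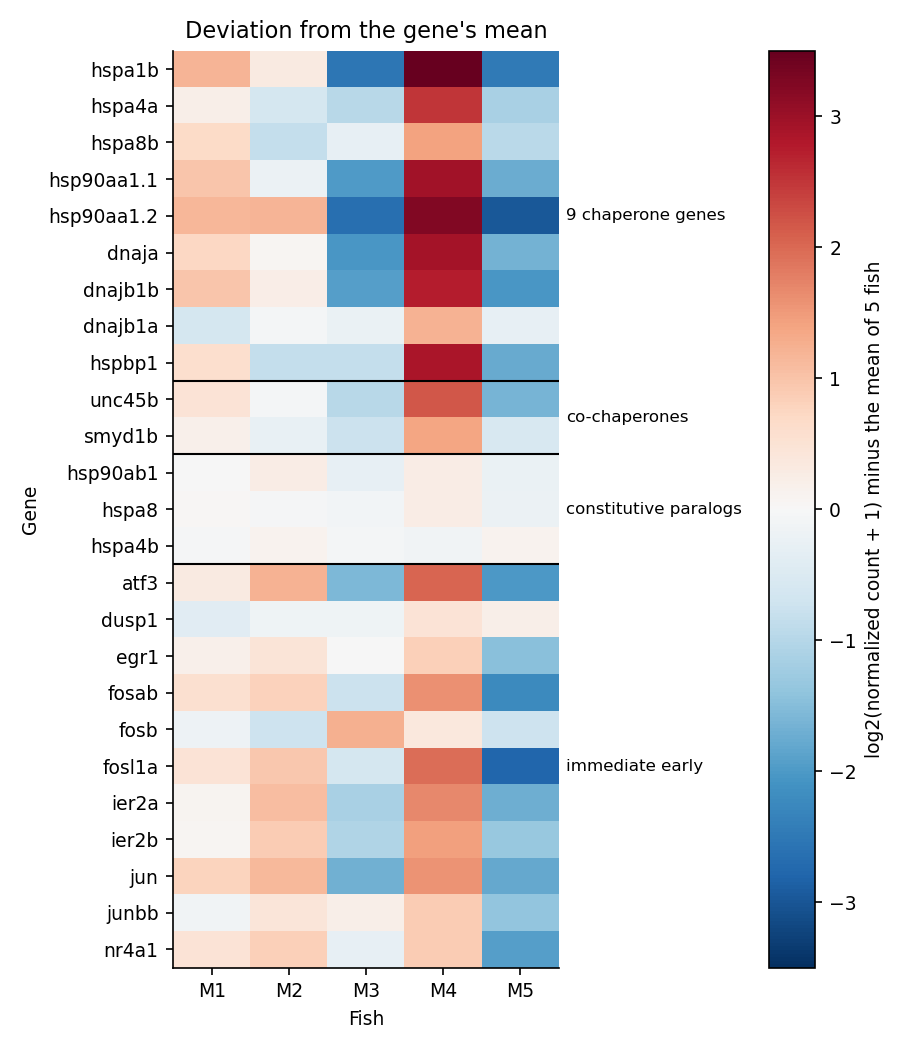
Deviation of log2(normalized count + 1) from the gene's mean over the 5 fish, with red above and blue below the mean, for the 9 chaperone genes, unc45b and smyd1b, the constitutive paralogs hsp90ab1, hspa8 and hspa4b, and the 11 immediate early genes with a mean of at least 100. M4 is red in the 9 chaperone genes, M3 and M5 are blue in most of them, and the constitutive paralogs are nearly white. Of the immediate early genes shown, fosb alone is highest in M3.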

How the data were processed

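Fast muscle RNA of 5 fish was rRNA-depleted and sequenced from a directional library kit, per the labels. The authors aligned trimmed reads with HISAT2 2.1.0 and counted fragments with featureCounts on each annotated feature, from primary alignments and letting a fragment match more than 1 feature. The values they deposited are raw counts. The 80416 features were assigned to genes by coordinates on O_niloticus_UMD_NMBU in the RefSeq gene table, which gave 79924 features a gene. Of these, 48794 had the gene's extent and 31130 lay inside 1 gene. A further 461 lay in several genes and 31 in none.

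Counts were divided by DESeq2 1.42.0 median-of-ratios size factors (R 4.3.3), from 38187 features with counts in every fish. Levels of different genes were compared per kilobase of transcript. The sums over marker genes and over immediate early genes were of normalized counts not divided by length. The counting intervals are exact Poisson intervals at 95%. Profiles were compared as the root mean square difference of log2(normalized count + 1) after centring on the gene's mean. Dixon's ratio, whose critical value for 5 values is 0.71, was used to describe genes in which 1 fish lay apart. With 1 group and genes chosen on these counts, no test between groups was made. Later steps, tested on simulated data, ran in Python 3.11.15 with pandas 2.3.3, numpy 2.4.6 and scipy 1.17.1, and figures were drawn with matplotlib 3.10.9.

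The 9 genes, the chaperone list, the marker lists (fast and slow muscle, red blood cells, adipocytes, fibroblasts, liver, immune cells), the immediate early list and the list of small heat shock proteins and BAG genes were chosen with earlier results of these data known. Named were all 9 genes. Of the chaperone list, the 5 largest and 5 smallest spans, the 5 most abundant per kilobase and the paralogs of the 9 were named, and of other genes the 5 nearest profiles for hspa1b, hsp90aa1.1, hsp90aa1.2, dnajb1a and dnajb1b, with unnamed loci counted only. Genes outside this rule are LOC100700083, hsc70, chordc1a, the remaining genes past a span of 2, other organellar chaperones and hsf1. So are the marker genes mybpc1 and myh7ba and the named immediate early, small heat shock and BAG genes. All of these were picked after their values were seen. The alternatives were edgeR 4.0.16 TMM factors, library totals, down-sampling to the smallest library, sums over a gene's transcripts, a pseudocount of 1, regularized log values, TPM, counts not divided by length, no minimum of the mean, and leaving out each fish.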

Additional observations from a re-analysis of the deposited data

Results flagged for a closer look

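In 8 of the 9 chaperone genes the gap between M4 and the next fish, as a share of the gene's whole range (Dixon's ratio), was above 0.71, the critical value for 5 values. The ratio was 0.807 for hspa1b, 0.867 for hspa4a, 0.774 for hsp90aa1.1, 0.767 for hsp90aa1.2, 0.806 for dnaja, 0.734 for dnajb1b, 0.819 for dnajb1a and 0.827 for hspbp1, and 0.486 for hspa8b. These ratios describe the counts on which the genes were chosen and are no test of them. The rate of about 1 in 20 that chance gives does not apply to genes picked in this way, and the ratios share 1 fish, so they are not independent. Over the 7209 background genes, 527 (7.31%) were above the value in any fish and 108 in M4. On the log2 scale, chosen after seeing the data, 0 of the 9 were above it.

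Of the 19 genes of the chaperone list named by rule, 2 were above the value, unc45b (0.749) and smyd1b (0.740), both in M4 and both named for their large spans. Of the 11 named genes of like profile, 6 were above it in M4, namely gbx1 (0.798), mfsd2ab (0.752), myod2 (0.931), ccdc117 (0.848), si:dkey-27i16.2 (0.833) and ubash3ba (0.804). They were picked for their likeness to genes in which M4 stands apart, so nothing is read from this count. Of the 23 genes named after their values were seen, 8 were above it, in M4 for LOC100700083 (0.805), dnajb4 (0.781), chordc1a (0.870), hspb1 (0.906), hspb7 (0.755), bag2 (0.809) and bag3 (0.783), and in M5 for hsf1 (0.758). Not counted among the 23 were dusp1 (0.367) and the marker genes mybpc1 (0.992, in M1) and myh7ba (0.759, in M5).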

How the results depend on the processing

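Of 171 values recomputed, 159 stayed within 1 SD of the log2 values over the fish or, for counts and shares, within 1.5 times, and 12 did not. None of the paralog ratios turned its direction, and spans, counts and shares have no direction to turn. This limit is wide where the fish differ most. For hspa1b the SD was 2.55, so a span of 13.2 without M4, in place of 64.4, still lay within it. Some values could not move, since library factors cancel in a ratio within a fish. A span also stays the same when a middle fish is left out. The tally is therefore no measure of stability. Leaving out each fish in turn, the span lay between 13.2 and 64.4 for hspa1b, 2.52 and 12.5 for hspa4a, 3.12 and 5.13 for hspa8b, 7.65 and 30.4 for hsp90aa1.1, 18.4 and 75.6 for hsp90aa1.2, 6.78 and 30.8 for dnaja, 8.01 and 27.4 for dnajb1b, 1.47 and 3.59 for dnajb1a, and 5.26 and 25.6 for hspbp1, the lowest value being without M4 in each. A span of at least 2 was then found in 8 to 9 of the 9, in 15.2% to 21.6% of the background and in 5 to 11 (9.09% to 20%) of the 55 chaperone list genes, since a span over fewer fish can only be smaller. The mean log2 ratio lay between 2.11 and 2.77 for hsp90aa1.1 over hsp90aa1.2 and between -5.39 and -4.56 for dnajb1a over dnajb1b. With counts not divided by length and all fish kept, these ratios were 2.48, in place of 2.42, and -3.80, in place of -4.96. Regularized log values, which are drawn towards the gene's mean, gave shorter spans for all 9 genes, at 15.4 for hspa1b, 5.67 for hspa4a, 2.77 for hspa8b, 9.84 for hsp90aa1.1, 13.8 for hsp90aa1.2, 9.12 for dnaja, 8.92 for dnajb1b, 2.06 for dnajb1a and 6.91 for hspbp1. With no minimum of the mean, the genes with at least 1 count in every fish were taken. A span of at least 2 was then found in 47.9% of all such genes and in 20 (28.2%) of those in the chaperone list. On the log2 scale 0 of the 9 genes passed Dixon's ratio. No paired analysis was possible because all 5 libraries are of 1 group.

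The description rests on 5 fish and 1 library each, so a difference between fish cannot be told apart from one between their libraries. The order of M3 and M5 is limited because their values lay close together in several genes. In hspa4a their deposited counts were 888 and 871, and in hsp90aa1.2 they were also low, at 61 and 52. The split of reads between copies of a gene is uncertain, and strand use in the counting is not given in the sources used here.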

Other observations

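Small heat shock proteins, which hold unfolded proteins without ATP, and BAG proteins, which exchange the nucleotide of HSP70, were taken as a further list of 14 symbols, of which 11 had a mean normalized count of at least 100 and 1 had no counts. A span of at least 2 was found in 7 of the 11 and M4 was the highest fish in the same 7, beside 24.4% and 17.2% of the background genes. The gene hspb1 had normalized counts of 15269 in M4, 6260 in M1, 5635 in M2, 5491 in M5 and 5327 in M3. Its span of 2.87 came from M4, since it was 1.18 without that fish. The muscle gene hspb7 had 2978 in M4, 798.4 in M5, 419.8 in M1, 92.6 in M2 and 91.0 in M3, a span of 32.7, with M5 rather than M1 next to M4. The others were bag2 (8.37), hspb6 (4.90), bag3 (3.12), hspb9 (2.99) and hspb8 (2.16). In bag2 the fish followed M4, M1, M2, M3 and M5, the order of dnajb1b, whereas in bag3, hspb6, hspb7 and hspb8 M5 came next to M4.

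The HSP90-binding gene chordc1a was below the minimum of the mean, with 113.6 normalized counts in M4, 14.8 in M1, 2.27 in M2, 0.997 in M5 and 0 in M3.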
